A study of Mus musculus with 17 samples.

Results

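A set of 10 genes that mark microglia and the resident macrophages of other organs was followed in the forebrain and testes of newborn osteocalcin mutant mice. They were *Cx3cr1*, *P2ry12*, *Tmem119*, *Csf1r*, *Aif1*, *C1qa*, *C1qb*, *C1qc*, *Trem2* and *Tyrobp*, taken by name, through the Ensembl identifiers of the count table, as 10 of the 55359 genes in that table. All 10 were found. In testes all 10 were read often enough to be tested, and in forebrain 9 were, because *Aif1* had too few counts there.

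Microglia are the macrophages that live in the brain, and the testis holds resident macrophages of its own between and around the tubules. Both kinds of cell need the receptor tyrosine kinase CSF1R, which binds CSF1 and IL-34, to survive. CX3CR1 is the receptor for fractalkine, a ligand displayed by neurons, and P2RY12 senses nucleotides through the fine processes of resting microglia. TREM2 is a lipid-sensing receptor that signals through the adaptor TYROBP, and C1QA, C1QB and C1QC are the chains of C1q, which starts the classical complement cascade. *Tmem119* is used as a marker of microglia and was also described in osteoblasts, and *Aif1* encodes the cytoplasmic macrophage protein IBA1.

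Poly-A RNA of 17 tissue samples from male pups was sequenced on postnatal day 1. The pups were of the OcnGK strain, an *Osteocalcin* deletion made by homologous recombination and kept on a 129/SvEv background. In testes there were 2 wild-type (WT) libraries, 3 *Ocn*+/- libraries and 3 *Ocn*-/- libraries, and in forebrain there were 3 libraries of each genotype. WT pups had WT mothers, whereas the *Ocn*+/- and the *Ocn*-/- pups all had *Ocn*-/- mothers, so the genotype of the pup, the genotype of the mother and the litter change together between WT and mutants and cannot be told apart. The labels name the brain tissue as hippocampus and the study describes forebrain including hippocampus, and they do not say whether a forebrain and a testis came from the same pup. The tissues were not sorted into cells, so fewer cells of a type and less RNA per cell cannot be told apart.

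The libraries held 7302401 to 8289015 counts in testes and 6518151 to 14621584 in forebrain, where WT 3 was the shallowest. Osteocalcin itself gave 0 to 2 counts in testes and 0 to 5 in forebrain for *Bglap* and 0 for *Bglap2*, so the genotypes could not be checked from it. Levels are given in CPM, counts brought to a common, TMM-scaled library total, and genes are compared with each other only per kilobase of their canonical transcript. A gene passed the test when its Benjamini-Hochberg adjusted p from edgeR's quasi-likelihood test, taken over all genes of the tissue, was under 0.05.

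The sequence before the canonical transcript start of 5 of the genes is shown because the results turn on how *Cx3cr1* and *Trem2* moved relative to the 3 C1q genes. *Cx3cr1* (ENSMUSG00000052336) lies on chromosome 9 from 119877749 to 119898945 on the minus strand, *Trem2* (ENSMUSG00000023992) on chromosome 17 from 48653429 to 48661175 on the plus strand, and the C1q genes lie together on chromosome 4 within 20.15 kb, all in GRCm39. Each line gives the 250 bases before the start of the canonical transcript in GRCm39, written 5′ to 3′ on the strand of the gene. The *Cx3cr1* window lies within the span of the gene, since another annotated transcript starts further upstream, and the same holds for the *Csf1r* and *Aif1* windows. Capitals mark matches on either strand to GAGGAA, a core bound by PU.1 and other ETS factors, to TGTGGT, a RUNX core, and to TGANTCA, an AP-1 site.

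Cx3cr1, chr9:119897368-119897617, minus strand: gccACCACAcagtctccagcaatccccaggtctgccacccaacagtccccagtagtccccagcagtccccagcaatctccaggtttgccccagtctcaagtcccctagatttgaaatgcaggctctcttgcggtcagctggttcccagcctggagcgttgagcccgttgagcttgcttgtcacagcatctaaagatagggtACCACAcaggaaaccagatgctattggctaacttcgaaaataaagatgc
Trem2, chr17:48653179-48653428, plus strand: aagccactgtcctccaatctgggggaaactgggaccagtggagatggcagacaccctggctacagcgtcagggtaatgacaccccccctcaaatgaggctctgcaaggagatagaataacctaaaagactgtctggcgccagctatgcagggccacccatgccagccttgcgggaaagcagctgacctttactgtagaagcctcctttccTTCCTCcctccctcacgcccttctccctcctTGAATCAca
C1qa, chr4:136626162-136626411, minus strand: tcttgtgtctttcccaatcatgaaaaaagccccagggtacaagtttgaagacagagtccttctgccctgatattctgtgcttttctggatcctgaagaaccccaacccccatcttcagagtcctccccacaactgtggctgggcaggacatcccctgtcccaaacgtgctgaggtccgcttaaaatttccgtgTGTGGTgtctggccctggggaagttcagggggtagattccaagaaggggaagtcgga
C1qb, chr4:136613512-136613761, minus strand: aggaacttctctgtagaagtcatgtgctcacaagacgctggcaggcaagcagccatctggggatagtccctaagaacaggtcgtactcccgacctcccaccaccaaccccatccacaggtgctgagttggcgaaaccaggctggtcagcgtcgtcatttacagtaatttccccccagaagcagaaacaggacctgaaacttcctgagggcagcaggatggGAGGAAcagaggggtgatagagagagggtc
C1qc, chr4:136620377-136620626, minus strand: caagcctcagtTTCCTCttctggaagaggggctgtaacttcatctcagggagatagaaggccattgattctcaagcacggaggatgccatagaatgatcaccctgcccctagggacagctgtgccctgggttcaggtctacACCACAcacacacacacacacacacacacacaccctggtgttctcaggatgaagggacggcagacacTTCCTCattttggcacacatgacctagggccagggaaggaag

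The GAGGAA core was present in the windows of 5 of the 10 genes (*C1qb*, *C1qc*, *Csf1r*, *Trem2* and *Tyrobp*), against 22.9% of 21757 protein-coding promoters of the same length. The TGTGGT core was present in those of 4 of 10 (*Cx3cr1*, *C1qa*, *C1qc* and *Csf1r*), against 13% of promoters, and TGANTCA in those of 2 of 10 (*Tmem119* and *Trem2*), against 6.18%. The *Cx3cr1* window held 2 TGTGGT matches and no GAGGAA, and the *Trem2* window held the reverse, 1 GAGGAA and no TGTGGT. The motifs and windows were chosen after the expression values had been seen, and a match is only a description of the letters.

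All 10 genes were read in both tissues, at unequal levels. Per kilobase, *C1qa* was first in forebrain at 8.79 ± 2.01 CPM per kb (SD, n = 9), followed by *Tyrobp* at 6.21 ± 1.83 and *C1qc* at 5.22 ± 0.806. *P2ry12*, *Csf1r*, *Cx3cr1* and *C1qb* came next between 4.55 and 3.35 CPM per kb. Neighbours in this order overlapped in range, except that *C1qb* stayed above *Trem2* (1.65 CPM per kb) and *Tmem119* (1.44) stayed above *Aif1* (0.144).

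In testes the order opened with *Tmem119* at 17.5 ± 3.00 CPM per kb (SD, n = 8), followed by *C1qa* at 12.3 ± 4.23 and *Tyrobp* at 8.81 ± 2.26. *Aif1* was again last at 0.333 CPM per kb, below the whole range of *P2ry12*, the gene before it. Every other pair of neighbours in the testes order overlapped.

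Between the tissues, 5 of the 10 genes passed the test, against 84.4% of all genes tested. *P2ry12* was 3.98-fold higher in forebrain (log2 difference 1.99, SE 0.180, adjusted p = 2.15e-10), with 8.31 to 15.1 CPM there and 1.78 to 5.35 CPM in testes. *Cx3cr1* was 1.57-fold higher in forebrain averaged over genotypes (log2 difference 0.65, SE 0.141, adjusted p = 0.000192), a size that depended on the scaling between tissues, at 0.50 under upper quartile scaling (adjusted p = 0.00237) and 0.34 with library size alone (adjusted p = 0.0436). Its mean CPM, scaled within each tissue like all CPM given here, was higher in forebrain in WT (9.855 against 6.84) and *Ocn*-/- (19.2 against 13.3) but not in *Ocn*+/- (18.2 against 19.95). *Tmem119* went the other way and was 9.71-fold lower in forebrain (log2 difference -3.28, SE 0.120, adjusted p = 2.17e-18), at 2.32 to 3.91 CPM against 28.6 to 47.2 CPM in testes. Thus a gene used to mark microglia was read far more in testes than in forebrain at this age.

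*Csf1r* was higher in forebrain by a log2 difference of 0.33 (SE 0.106, adjusted p = 0.00638), but this call was lost under upper quartile scaling (0.18, adjusted p = 0.118) and with library size alone (0.01, adjusted p = 0.916). *Csf1r* also shares 1461 exonic bases with *Hmgxb3* on the opposite strand and was the only 1 of the 10 genes with fractional counts, in 17 of 17 libraries, so its level is uncertain. Of the other genes, *Trem2* shares 433 exonic bases with the antisense *Gm65654* and *C1qb* and *C1qc* share 61 and 247 with *Gm69251*, neither of which is in the count table used here. *Cx3cr1* shares 78 with *Gm33858* (0 to 8 counts a library), *Aif1* 703 with *Gm17705* and *P2ry12* 294 with *Med12l* (180 to 275 counts in testes, 194 to 562 in forebrain). The strand setting of the counting is not given in the sources used here, so reads of the 2 strands cannot be told apart at these bases. *Aif1* was lower in forebrain (log2 difference -0.88, SE 0.382, adjusted p = 0.0373), from 1 to 16 counts a library, and that call was lost in 9 of 22 alternative analyses, the gene not being tested when at least 10 counts were asked of every library. These were DESeq2 (adjusted p = 0.0541), no filter on low counts (0.0694) and the omission of testes WT 2 (0.284), testes *Ocn*+/- 3, testes *Ocn*-/- 2, forebrain WT 2, forebrain WT 3, forebrain *Ocn*+/- 2 or forebrain *Ocn*-/- 2 (0.0596 to 0.0846 over the last 6). *C1qa*, *C1qb*, *C1qc*, *Trem2* and *Tyrobp* did not pass, although *Trem2* was called higher in forebrain without testes WT 1 (0.87, adjusted p = 0.0357), testes *Ocn*-/- 1 (0.74, adjusted p = 0.0197) or forebrain WT 1 (0.65, adjusted p = 0.0461). With library size alone *C1qa* (-0.48, adjusted p = 0.0150) and *Tyrobp* (-0.47, adjusted p = 0.0327) were called lower in forebrain. The median gene itself lay at -0.09 on this scale, at -0.23 under upper quartile scaling and at -0.40 with library size alone.

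**Figure D1:**
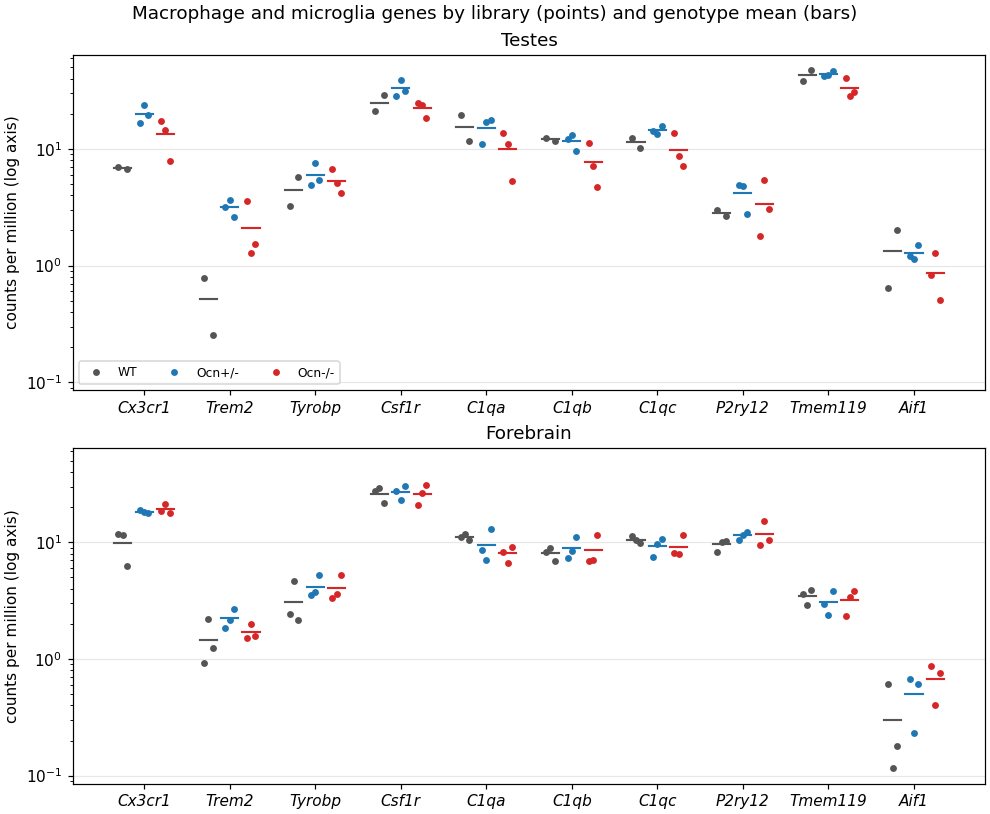
Level of each of the 10 genes in every library, in CPM on a log axis, for testes (upper) and forebrain (lower); points are libraries, coloured by genotype, and bars are genotype means. *Cx3cr1* is higher in every mutant library than in every WT library of the same tissue, while the C1q genes overlap between WT and *Ocn*+/-, apart from *C1qc* in testes.

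The question of the genotype comparisons is whether a pup carrying 1 or 2 mutant *Ocn* alleles, born to a mutant mother, differs from WT. In forebrain the fractalkine receptor gene *Cx3cr1* rose in both mutant genotypes. It was read at 11.8, 11.5 and 6.23 CPM in the 3 WT libraries. It was read at 18.9, 18.0 and 17.7 CPM in the 3 *Ocn*+/- libraries and at 18.6, 21.2 and 17.8 CPM in the 3 *Ocn*-/- libraries. All 6 mutant libraries were above all 3 WT libraries. Of the 10 genes, *Cx3cr1* and *P2ry12* (2 of 10) lay wholly above WT in *Ocn*+/- forebrain, against 12.9% of genes tested, and in *Ocn*-/- forebrain *Cx3cr1* alone did, also against 12.9%.

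The rise of *Cx3cr1* was 1.79-fold in *Ocn*+/- forebrain (log2 fold change 0.84, SE 0.175, adjusted p = 0.0113) and 1.88-fold in *Ocn*-/- forebrain (0.91, SE 0.175, adjusted p = 0.00582). It was the only 1 of the 9 genes tested to pass in either genotype. Of all genes, 3.89% passed in *Ocn*+/- and 4.85% in *Ocn*-/-, and 1.21% and 1.80% passed upward. The low and shallow WT 3 library held 35 *Cx3cr1* counts. Without it the log2 fold change was 0.64 in *Ocn*+/- (adjusted p = 0.0412) and 0.72 in *Ocn*-/- (adjusted p = 0.0237), and both calls held in 16 of 16 alternative analyses.

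In testes *Cx3cr1* was also higher in the mutants. It was read at 6.997 and 6.687 CPM in the 2 WT libraries and at 16.7, 23.7 and 19.4 CPM in the 3 *Ocn*+/- libraries. The 3 *Ocn*-/- libraries held 17.4, 14.5 and 7.83 CPM. No mutant library reached down to WT, although *Ocn*-/- 3 came close. With *Cx3cr1*, *Trem2* and *C1qc*, 3 of the 10 genes lay wholly above WT in *Ocn*+/- testes, against 23.4% of genes tested. *Cx3cr1* and *Trem2* did so in *Ocn*-/- testes, against 19.9%.

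The rise was 2.91-fold in *Ocn*+/- testes (log2 fold change 1.54, SE 0.301, adjusted p = 0.00785). The call was lost without WT 1 (adjusted p = 0.0868) or without WT 2 (adjusted p = 0.109), each with 1 WT library left and with log2 fold changes of 1.58 and 1.53. The difference in *Ocn*-/- testes was 1.94-fold and did not pass (log2 fold change 0.96, SE 0.301, adjusted p = 0.0722). It passed without *Ocn*-/- 3 (1.22, adjusted p = 0.0107), with DESeq2 (0.96, adjusted p = 0.0440), with no filter on low counts (0.96, adjusted p = 0.00782) and with the replicate number as a block (1.08, adjusted p = 0.0478).

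*Trem2* was low in WT testes and higher in the mutants. The WT libraries held 6 and 2 counts, the *Ocn*+/- libraries 24, 29 and 19, and the *Ocn*-/- libraries 30, 10 and 12. WT, at 0.252 to 0.777 CPM, did not overlap with either mutant genotype, at 2.61 to 3.66 in *Ocn*+/- and 1.27 to 3.56 in *Ocn*-/-, and the mutant genotypes overlapped with each other. The log2 fold change was 2.59 in *Ocn*+/- (SE 0.658, adjusted p = 0.0262). With so few counts in WT the size of the change is poorly known, and it ranged from 2.02 to 3.57 when 1 library was left out.

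The *Trem2* call in *Ocn*+/- testes was lost without WT 1 (adjusted p = 0.0898), without WT 2 (0.241), without *Ocn*+/- 1 (0.0693) or without *Ocn*+/- 3 (0.0557), and the gene was not tested when at least 10 counts were asked of every library. *Trem2* did not pass in *Ocn*-/- testes (log2 fold change 2.02, SE 0.669, adjusted p = 0.0832). There it passed with no filter on low counts (adjusted p = 0.0364) and without *Ocn*-/- 2 (adjusted p = 0.0490). *Cx3cr1* and *Trem2* were thus the 2 of 10 genes that passed in *Ocn*+/- testes, against 8.25% of all genes and 3.89% upward, and 0 of 10 passed in *Ocn*-/- testes, against 5.64%. At an unadjusted p under 0.05 there were 4 of 10 in *Ocn*-/- testes, beside 3760 of 16361 genes tested, of which *Cx3cr1* and *Trem2* were higher and *Tmem119* and *C1qb* lower.

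*Tyrobp*, the signalling adaptor of TREM2, did not pass in any genotype comparison. Its testes levels were 3.24 and 5.68 CPM in WT, 4.92, 7.57 and 5.36 CPM in *Ocn*+/- and 6.76, 5.10 and 4.17 CPM in *Ocn*-/-. In forebrain *Trem2* was read at 0.915 to 2.19 CPM in WT, 1.83 to 2.69 in *Ocn*+/- and 1.52 to 2.01 in *Ocn*-/-, and the groups overlapped. Its log2 fold changes there were 0.64 (SE 0.386, adjusted p = 0.364) and 0.26 (SE 0.395, adjusted p = 0.751).

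**Figure D2:**
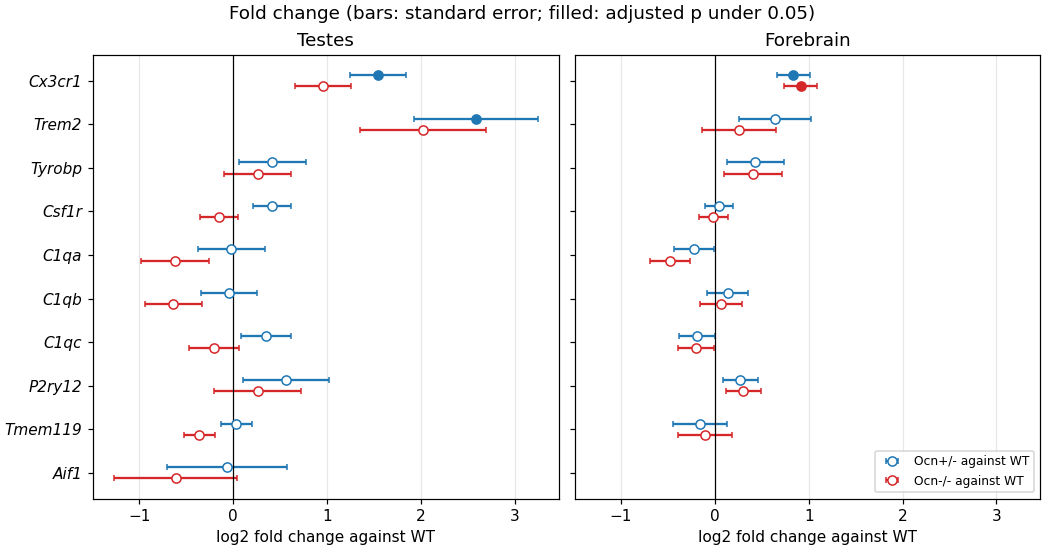
Log2 fold change of each gene in *Ocn*+/- and *Ocn*-/- against WT, in testes (left) and forebrain (right), with bars of 1 standard error and filled points where the adjusted p was under 0.05. *Cx3cr1* is filled in 3 of its 4 comparisons and *Trem2* in 1; *Aif1* has no point in forebrain because it was not tested.

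The C1q genes, which code for secreted complement subunits, did not pass against WT in either tissue. In testes *C1qa* was read at 19.3 and 11.6 CPM in WT, 10.89, 17.04 and 17.74 in *Ocn*+/- and 13.8, 11.0 and 5.31 in *Ocn*-/-. *C1qb* in *Ocn*-/- testes lay below the WT range, with 11.3, 7.14 and 4.68 CPM against 12.3 and 11.7, at a log2 difference of -0.64 (SE 0.302, adjusted p = 0.216). *C1qa* in *Ocn*-/- forebrain lay below the WT range, with 8.23, 6.63 and 9.18 CPM against 11.1, 11.8 and 10.5, at a log2 difference of -0.48 (SE 0.213, adjusted p = 0.194). A whole group lay below WT for 22.1% of genes in *Ocn*-/- testes and for 13.9% in *Ocn*-/- forebrain. *C1qc* in *Ocn*+/- testes lay above WT (log2 difference 0.35, SE 0.265, adjusted p = 0.431), and the other C1q comparisons with WT overlapped.

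The receptors and surface markers other than *Cx3cr1* and *Trem2* did not pass either. *P2ry12* in forebrain was read at 8.31 to 10.3 CPM in WT, 10.6 to 12.2 in *Ocn*+/- and 9.504 to 15.07 in *Ocn*-/-, with log2 differences of 0.27 (SE 0.188, adjusted p = 0.441) and 0.30 (SE 0.188, adjusted p = 0.365). *Tmem119* in testes was read at 38.1 and 47.2 CPM in WT, 42.4 to 46.1 in *Ocn*+/- and 28.6 to 40.3 in *Ocn*-/-. *Csf1r* differed from WT by log2 values between -0.15 and 0.41 over the 4 comparisons. *Aif1*, at 4 to 16 counts in testes and 1 to 11 in forebrain, was too low for a modest difference to be detectable at this depth.

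Over the list, 7 of 10 genes in *Ocn*+/- testes and 4 of 10 in *Ocn*-/- testes were above WT, with median log2 differences of 0.38 and -0.18 beside 0.01 and -0.01 over all genes tested. In forebrain 6 of 9 were above WT in *Ocn*+/- and 5 of 9 in *Ocn*-/-, with medians of 0.14 and 0.06 beside 0.01 and 0.01. Both mutant genotypes are compared with the same WT libraries.

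The *Ocn*+/- and *Ocn*-/- pups shared the genotype of the mother, so the mother's genotype does not differ in this comparison. The labels name no litter or father, so these may still differ between the mutant genotypes together with the alleles of the pup. In testes all 10 genes were lower in *Ocn*-/- than in *Ocn*+/-, with log2 differences from -0.60 to -0.15 and a median of -0.56, beside -0.01 over all genes. None passed, as was so for all 16361 genes (0%), of which 1881 had an unadjusted p under 0.05. Of the 10 genes, 5 had an unadjusted p under 0.05, namely *Csf1r*, *Tmem119*, *Cx3cr1*, *C1qc* and *C1qb*, with adjusted p from 0.308 to 0.423. *Csf1r* and *Tmem119* lay wholly below *Ocn*+/-, 2 of 10 against 8.02% of genes. With DESeq2 72 genes passed in all and with no filter on low counts 252.

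Library *Ocn*-/- 3 was the lowest testes library for *Csf1r*, *C1qa*, *C1qb*, *C1qc* and *Aif1*. Without it all 10 genes were still lower in *Ocn*-/-, at a median of -0.33, and 1 had an unadjusted p under 0.05. Without *Ocn*-/- 1 the median was -0.73 and 9 of 10 were lower, and without *Ocn*+/- 2 it was -0.44 with 9 of 10 lower. In forebrain the median difference between the mutant genotypes was -0.03 over 9 genes, and none passed, beside 1 of 16076 genes (0.00622%). *Cx3cr1* there differed by a log2 value of 0.08 (SE 0.161, adjusted p = 0.999).

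Whether the difference from WT itself differed between tissues was tested with an interaction term, taking both mutant genotypes together. None of the 10 genes passed, beside 2.96% of 17800 genes. *Trem2* had the widest gap, with the mutant difference smaller in forebrain than in testes by 1.85 on the log2 scale (-1.85, SE 0.702, adjusted p = 0.151), and was the only 1 of the 10 genes at an unadjusted p under 0.05, beside 3327 of the 17800 genes. For *Cx3cr1* it was -0.35 (SE 0.326, adjusted p = 0.613).

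Counts relative to C1q within a library do not depend on its scaling. The ratio of *Cx3cr1* to the summed counts of *C1qa*, *C1qb* and *C1qc* was 0.159 and 0.199 in the WT testes. The *Ocn*+/- testes stood at 0.448, 0.543 and 0.452. The *Ocn*-/- testes stood at 0.451, 0.543 and 0.459. On this ratio the 2 mutant genotypes covered nearly the same range, and *Ocn*-/- 3, with the lowest C1q levels of the testes, was within the range of the other mutants. In forebrain the ratio was 0.386, 0.369 and 0.229 in WT, 0.807, 0.718 and 0.511 in *Ocn*+/- and 0.798, 0.981 and 0.553 in *Ocn*-/-, and WT again lay below both mutant genotypes. Relative to *Csf1r* in testes, *Cx3cr1* stood at 0.333 and 0.2335 in WT, 0.594 to 0.618 in *Ocn*+/- and 0.428 to 0.700 in *Ocn*-/-. The lowest mutant there was *Ocn*-/- 3, at 0.428. Relative to *Csf1r* in forebrain it was 0.287 to 0.432 in WT, 0.585 to 0.786 in *Ocn*+/- and 0.578 to 0.900 in *Ocn*-/-.

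*Trem2* relative to the same sum was 0.0176 and 0.00752 in WT testes, 0.0609 to 0.0854 in *Ocn*+/- and 0.0476 to 0.0920 in *Ocn*-/-. In forebrain it was 0.0299 to 0.0701 in WT, 0.0774 to 0.0867 in *Ocn*+/- and 0.0492 to 0.0929 in *Ocn*-/-, so that *Ocn*+/- lay above WT and *Ocn*-/- overlapped with it. Relative to *Csf1r* in forebrain *Trem2* overlapped between all genotypes, from 0.0334 to 0.0757 in WT, 0.06585 to 0.0949 in *Ocn*+/- and 0.0515 to 0.0761 in *Ocn*-/-. *Csf1r* relative to C1q overlapped between genotypes in testes, from 0.477 to 0.853 in WT, 0.731 to 0.899 in *Ocn*+/- and 0.644 to 1.07 in *Ocn*-/-. *Tyrobp* relative to C1q was 0.0735 and 0.169 in WT testes, 0.125 to 0.173 in *Ocn*+/- and 0.175 to 0.244 in *Ocn*-/-, so that *Ocn*-/- lay above WT there. Its forebrain ratio was 0.0784 to 0.148 in WT, 0.149 to 0.151 in *Ocn*+/- and 0.144 to 0.167 in *Ocn*-/-, with *Ocn*+/- just above WT. A higher ratio to C1q was thus not limited to *Cx3cr1* and *Trem2*. These ratios were chosen after the values had been seen and were not tested.

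**Figure D3:**
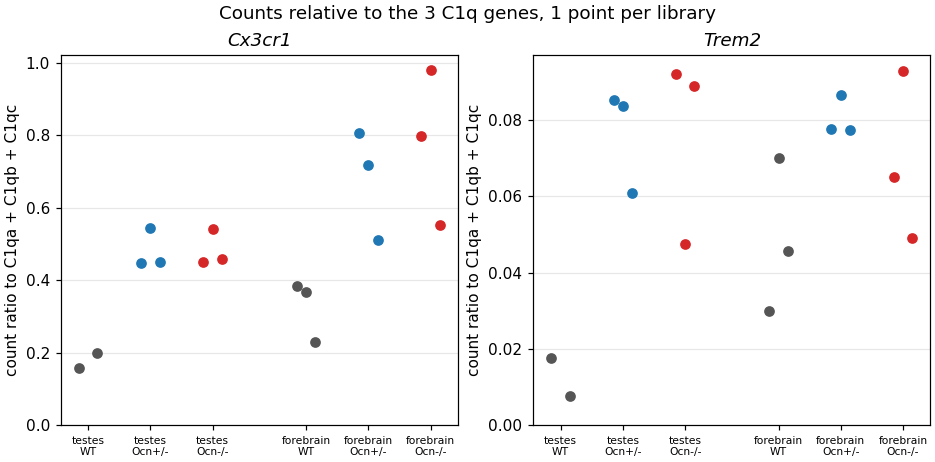
Count ratio of *Cx3cr1* (left) and *Trem2* (right) to the sum of *C1qa*, *C1qb* and *C1qc*, on linear axes from 0, with 1 point per library, by tissue and genotype. For *Cx3cr1* the WT testes lie at 0.159 and 0.199 and the 6 mutant testes between 0.448 and 0.543, and in forebrain the mutants lie at 0.511 or above and WT at 0.386 or below.

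Partners of these genes were followed through lists of pathway and cell state genes. The counts given for each list stand beside 8.25% of all genes passing in *Ocn*+/- testes and 5.64% in *Ocn*-/- testes. In forebrain 3.89% passed in *Ocn*+/- and 4.85% in *Ocn*-/-. Among the fractalkine and purinergic partners, *P2ry13*, a nucleotide receptor whose gene lies with *P2ry12* within 55.9 kb of chromosome 3, was the only 1 of 9 tested to pass in forebrain. It was read at 0.762, 1.61 and 1.78 CPM in WT, 4.73, 2.71 and 2.69 in *Ocn*+/- and 4.55, 4.15 and 3.31 in *Ocn*-/-, so that WT lay below both mutant genotypes, which overlapped. The log2 fold changes were 1.38 in *Ocn*+/- (SE 0.365, adjusted p = 0.0395) and 1.62 in *Ocn*-/- (SE 0.362, adjusted p = 0.0153), from 10 to 14 counts a library in WT. The first call was lost without any single one of the 6 WT and *Ocn*+/- libraries (adjusted p = 0.0516 to 0.164) and the second without WT 1 (0.0703) or *Ocn*-/- 2 (0.0501).

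*Cx3cl1*, the gene for fractalkine, did not pass in either tissue, with forebrain log2 differences of 0.32 (adjusted p = 0.143) and 0.21 (adjusted p = 0.332) and testes differences of -0.46 (adjusted p = 0.233) and -0.55 (adjusted p = 0.189). Of these partners 3 of 9 fell in *Ocn*+/- testes, where 8.25% of all genes passed in either direction, namely the nucleotide-degrading *Entpd1* (-0.78, adjusted p = 0.0265) and the sheddase genes *Adam17* (-0.58, adjusted p = 0.0201) and *Adam10* (-0.50, adjusted p = 0.0181), and 0 of 9 passed in *Ocn*-/- testes. Of 9 other homeostatic microglia genes tested in forebrain, *Gpr34*, a lysophosphatidylserine receptor, rose in *Ocn*-/- (1.15, SE 0.317, adjusted p = 0.0408) together with *P2ry13*, and *P2ry13* alone rose in *Ocn*+/-. *Gpr34* was read at 2.82, 2.42 and 1.07 CPM in WT and 5.51, 4.42 and 5.04 in *Ocn*-/-. *Siglech*, *Olfml3* and *Sall1* of that list did not pass in forebrain, and 0 of 8 tested passed in testes.

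The CSF1R ligands *Csf1* and *Il34* and the myeloid factor gene *Spi1*, which codes for PU.1, did not pass in any comparison with WT. *Csf1* lay wholly above WT in both mutant forebrains, at log2 differences of 0.53 (adjusted p = 0.0669) and 0.52 (adjusted p = 0.0645). In testes 1 of 8 genes of that list passed, *Cebpa*, a transcription factor gene of myeloid cells and of fat and steroidogenic cells. It fell from 82.8 and 84.8 CPM in WT to 30.3, 23.9 and 30.9 in *Ocn*+/- (log2 fold change -1.56, adjusted p = 8.88e-06) and to 33.2, 34.0 and 34.3 in *Ocn*-/- (-1.31, adjusted p = 6.16e-05). None of the 8 passed in forebrain.

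Genes that signal below TREM2 and TYROBP gave 0 of 9 in *Ocn*+/- testes and 1 of 9 in *Ocn*-/- testes, *Apoe*, a lipid carrier and TREM2 ligand, which fell (-0.63, adjusted p = 0.0247). In forebrain 0 of 8 passed in either genotype, and all 8 lay above WT in both, with medians of 0.45 and 0.33. Complement genes beyond C1q gave *C3* up (0.83, adjusted p = 0.0450) and the C1 inhibitor gene *Serping1* down (-0.49, adjusted p = 0.0355) in *Ocn*+/- testes. *Serping1* (-0.79, adjusted p = 0.00283) and *C1s1* (-0.71, adjusted p = 0.0241) fell in *Ocn*-/- testes, of 15 tested, and 0 of 11 passed in forebrain.

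Of 15 general macrophage and leukocyte genes, 1 rose in *Ocn*+/- testes, the lysosomal *Cd68*, from 3.37 and 3.79 CPM in WT to 6.64, 9.97 and 10.3 (log2 fold change 1.32, SE 0.328, adjusted p = 0.0231). It was read at 7.11, 4.59 and 6.82 CPM in *Ocn*-/- testes (0.79, adjusted p = 0.166). *Adgre1*, which codes for F4/80, did not pass in any comparison with WT. In forebrain *Coro1a*, an actin regulator of leukocytes that neurons also express, rose in *Ocn*-/- (0.60, adjusted p = 0.0119).

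Among genes of border-associated and long-lived resident macrophages, 2 of 9 tested fell in *Ocn*-/- testes, where 5.64% of all genes passed in either direction. In *Ocn*-/- forebrain 1 of 8 fell, against 4.85%. In *Ocn*+/- 0 passed in either tissue, against 8.25% in testes and 3.89% in forebrain. *F13a1*, which codes for a chain of coagulation factor XIII, fell in *Ocn*-/- testes (-1.66, adjusted p = 0.0349) and in *Ocn*-/- forebrain (-0.84, adjusted p = 0.0383), and the scavenger receptor gene *Stab1* fell in *Ocn*-/- testes (-0.74, adjusted p = 0.0156). *F13a1* was read at 41.1 and 50.3 CPM in WT testes, 18.7 to 23.9 in *Ocn*+/- and 6.82 to 22.3 in *Ocn*-/-, and at 21.0 to 22.6 CPM in WT forebrain and 8.95 to 17.1 in *Ocn*-/- forebrain. The summed level of the 11 genes in testes was 173 and 197 CPM in WT, 132 to 155 in *Ocn*+/- and 57.1 to 116 in *Ocn*-/-.

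Of 9 tested genes of the amoeboid microglia of early postnatal axon tracts, 3 passed the interaction of tissue and genotype, against 2.96% of all genes. They were *Spp1*, *Igf1* and *Lpl*. *Spp1*, the gene for osteopontin, rose in forebrain from 9.07, 10.1 and 11.0 CPM in WT to 24.8, 33.9 and 29.0 in *Ocn*+/- (log2 fold change 1.55, SE 0.1504, adjusted p = 8.63e-06) and 23.6, 29.0 and 27.3 in *Ocn*-/- (1.42, SE 0.151, adjusted p = 2.82e-05). *Igf1* rose there as well (1.19, adjusted p = 0.00103, and 0.82, adjusted p = 0.0136), and *Gpnmb* rose in *Ocn*-/- (2.20, adjusted p = 0.0271), from 10, 0 and 4 counts in WT to 22, 39 and 35. In all, 2 of 9 tested rose in *Ocn*+/- forebrain and 3 of 9 in *Ocn*-/-, where 1.21% and 1.80% of all genes passed upward. In testes *Spp1* fell in both genotypes (-0.94, adjusted p = 0.00159, and -0.72, adjusted p = 0.00786), and the interaction of tissue and genotype passed (2.33, SE 0.186, adjusted p = 5.46e-08). Neurons, endothelium and connective tissue cells also express *Spp1* or *Igf1*, so these 2 genes do not mark microglia alone.

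In *Ocn*+/- testes *Lpl* (-1.13, adjusted p = 0.0352) and *Igf1* (-0.53, adjusted p = 0.0409) fell and *Gpnmb* rose, with 11, 14 and 17 counts against 1 and 2 in WT (adjusted p = 0.0334). The monocyte gene *Plac8* fell in both mutant testes (-1.41, adjusted p = 0.00593, and -1.22, adjusted p = 0.0141). *Chil3* fell from 13 and 19 counts in WT to 0 or 1 in every mutant library. They were the only 2 called in testes from the list of 8 MHC class II and monocyte genes. *Ccr2* went the other way, wholly above WT in both mutants without passing (0.82, adjusted p = 0.412, and 1.47, adjusted p = 0.143). Against WT, *Ocn*+/- values were 0.44 for *H2-Aa*, 0.29 for *H2-Eb1*, 0.32 for *Cd74* and 0.01 for *H2-Ab1*. The matching *Ocn*-/- values were 0.03, 0.22, -0.45 and -0.40, and none of these passed. *Ly6c2* was not tested. The genes of that list were close to absent in forebrain, at 1.25 to 3.39 CPM summed.

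With 1 of the 2 WT testes libraries left out, a single WT library remained and calls over all genes fell as well, from 1350 to 131 without WT 1 and 118 without WT 2 in *Ocn*+/- and from 922 to 231 and 85 in *Ocn*-/-. Of the 13 calls among these lists in *Ocn*+/- testes, 12 were lost in at least 1 of these fits, and of the 9 in *Ocn*-/- testes 8 were, while *Cebpa* held in both. Every one of these calls kept its direction. The log2 fold change moved by over 1.5 times for *Serping1* in *Ocn*+/- (-0.31 without WT 2) and for *Apoe* (-0.40) and *C1s1* (-0.43) in *Ocn*-/- without WT 2. In *Ocn*+/- testes *Serping1*, *C3*, *Entpd1*, *Adam17*, *Adam10*, *Cd68*, *Gpnmb*, *Lpl*, *Igf1* and *Chil3* were lost without either WT library (adjusted p = 0.0863 to 0.416), *Spp1* without WT 1 (0.0508) and *Plac8* without WT 2 (0.124). *Serping1*, *C3*, *Adam10*, *Gpnmb*, *Lpl* and *Igf1* were also lost without *Ocn*+/- 1 or 3, *Entpd1* and *Chil3* without *Ocn*+/- 1, and *Adam17* and *Cd68* without *Ocn*+/- 3 (adjusted p = 0.0516 to 0.143), and *Igf1* without *Ocn*-/- 1 (0.0578).

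In *Ocn*-/- testes *Stab1*, *Spp1*, *Chil3*, *Plac8* and *F13a1* were lost without either WT library (adjusted p = 0.0512 to 0.309) and *Apoe*, *Serping1* and *C1s1* without WT 2 (0.157 to 0.444). *Apoe* and *C1s1* were also lost without *Ocn*-/- 1 or 3 (0.0509 to 0.0841), *Plac8* without *Ocn*-/- 1 (0.0598), and *F13a1* without *Ocn*-/- 1 (0.107) or any *Ocn*+/- library (0.0556 to 0.0664). In forebrain *Spp1* held in both genotypes, *Igf1* in *Ocn*+/- and *Coro1a* in *Ocn*-/-. In *Ocn*-/- forebrain *Gpr34* was lost without WT 2, WT 3 or any *Ocn*-/- library (0.0558 to 0.167), and *F13a1* without any WT library or *Ocn*-/- 1 or 2 (0.0739 to 0.139). *Gpnmb* and *Igf1* were lost there without WT 2, WT 3 or *Ocn*-/- 2 (0.0567 to 0.0871).

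**Figure D4:**
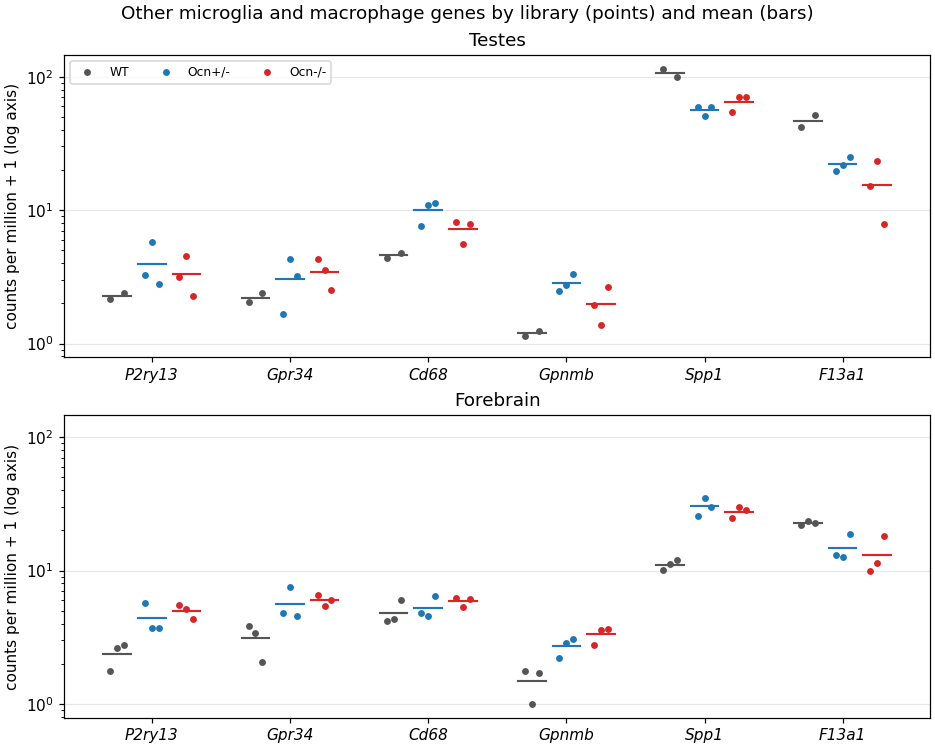
Level of 6 other microglia and macrophage genes in every library, in CPM plus 1 on a log axis, for testes (upper) and forebrain (lower); points are libraries and bars are genotype means. *P2ry13* and *Spp1* lie higher in all mutant forebrains than in WT, while *Spp1* and *F13a1* lie lower in all mutant testes than in WT.

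Markers of other cells moved with genotype too. Of all genes in testes, 8.25% passed in *Ocn*+/- and 5.64% in *Ocn*-/-. Neutrophil markers summed to 67.9 and 42.1 CPM in WT testes, 5.58 to 14.9 in *Ocn*+/- and 3.44 to 11.6 in *Ocn*-/-, with 3 of 5 tested lower in the first and 4 of 5 in the second, and *Elane* at 0 in WT and *Ocn*+/-. Endothelial markers summed to 514 and 528 CPM in WT testes, 341 to 400 in *Ocn*+/- and 319 to 345 in *Ocn*-/-, with 2 and 3 of 5 lower. *Cldn5* of that list was above WT in both genotypes without passing (0.53 and 0.27). Leydig cell markers summed to 1617 and 1711 CPM in WT testes, 690 to 1217 in *Ocn*+/- and 718 to 1097 in *Ocn*-/-, with 0 of 5 passing in either genotype. Erythroid markers summed to 2600.0 and 6865 CPM in WT, 865 to 3943 in *Ocn*+/- and 1316 to 2517 in *Ocn*-/-, again with 0 of 6 passing. Of the 4 Sertoli cell markers tested, *Sox9* was higher in both genotypes. Of 2 adipocyte markers *Fabp4* was lower in both, while *Plin1* lay wholly above WT in both without passing (0.61, adjusted p = 0.106, and 0.73, adjusted p = 0.0728). The adipocyte list summed to 22.9 and 24.9 CPM in WT, 19.3 to 25.7 in *Ocn*+/- and 21.15 to 26.2 in *Ocn*-/-. *Syt1* and *Pdgfra* were lower in *Ocn*+/- testes and *Aldh1l1* in *Ocn*-/- testes, from the neuron, oligodendrocyte and astrocyte lists. The part of these cells in the values of *Cx3cr1* and *Trem2* was not tested.

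In forebrain the olfactory bulb markers summed to 31.1 to 35.9 CPM in WT, 103 to 133 in *Ocn*+/- and 25.8, 81.05 and 85.1 in *Ocn*-/-, with 1 of 6 passing in *Ocn*+/-, *Nmb*, and 0 of 6 in *Ocn*-/-. Endothelial markers summed to 158 to 179 CPM in WT, 140 to 167 in *Ocn*+/- and 133 to 189 in *Ocn*-/-. They fell for 2 of 5 in *Ocn*+/- forebrain and 1 of 5 in *Ocn*-/- forebrain, where 3.89% and 4.85% of all genes passed. *Cldn5* went the other way, wholly above WT in both without passing (0.20, adjusted p = 0.365, and 0.35, adjusted p = 0.0906). *Tie1* stood at 0.24 and 0.30 and *Cdh5* at 0.10 and -0.04. Neutrophil markers summed to 0.335 to 3.11 CPM in all forebrain libraries. Erythroid markers summed to 523 to 723 CPM in WT forebrain, 357 to 408 in *Ocn*+/- and 487 to 599 in *Ocn*-/-, with 3 of 6 lower in the first (*Hba-a1*, *Hba-a2* and *Hbb-bs*) and 1 of 6 in the second (*Slc4a1*). Radial glia and astrocyte markers summed to 816 to 938, 1024 to 1068 and 888 to 1161 CPM, with *Gfap* higher in both genotypes. Oligodendrocyte lineage markers summed to 242.5 to 269, 292 to 310 and 251 to 297 CPM, with *Olig1* higher in both. Choroid plexus markers summed to 568 to 734 CPM in WT, 569 to 855 in *Ocn*+/- and 320 to 530 in *Ocn*-/-, all below WT in the last, with 0 of 5 passing in either genotype. The part of these cells in the rise of *Cx3cr1*, or in the fall of *F13a1* in *Ocn*-/- forebrain, was not tested. Marker genes of other cells were named after their values had been seen, and their calls were not run through the alternative analyses.

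Within genotypes the 10 genes varied together to a degree. After the mean of each genotype was subtracted, 34 of 45 pairs correlated positively over the 8 testes libraries (median Pearson r 0.370, from -0.83 to 0.952) and 29 of 36 pairs over the 9 forebrain libraries (median 0.330, from -0.282 to 0.919). The closest pair in testes was *Csf1r* and *Tyrobp* (0.952) and in forebrain *C1qb* and *C1qc* (0.919). *P2ry12* stood apart in testes, positive with 1 of the 9 others. The pairs share libraries, depth and few counts, so these values are descriptions.

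The genes outside the list most like its mean in testes, among 12492 genes at 5 CPM or more, were *Gstk1*, *Eno2*, *Cdc14a*, *Homer3* and *Bad* (r from 0.990 to 0.994, 8 libraries). In forebrain, among 11911 genes, they were *Rflnb*, *Vps9d1*, *Mettl23*, *Rpl26* and *Cox6c* (r from 0.957 to 0.980, 9 libraries). None of them is on the macrophage lists used here. Of the genes within 500 kb of *Cx3cr1*, 0 of 12 tested in testes and 0 of 11 in forebrain passed in either mutant, and of those near *Trem2* 1 of 6 passed in *Ocn*+/- testes, *Foxp4* (log2 fold change 0.62, adjusted p = 0.0465). The 500 kb windows were chosen after the values of *Cx3cr1* and *Trem2* had been seen.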

How the data were processed

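The authors trimmed the reads with Trim Galore 0.6.6, aligned them to GRCm39 with STAR 2.7.8a and quantified genes with RSEM 1.3.3. The deposited table holds RSEM expected counts, which divide reads shared between genes and so can be fractional; they were rounded to whole numbers here. The GENCODE release and the strand setting are not given in the sources used here. Gene names came from GENCODE M39, which matched 54749 of 55359 identifiers.

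Each tissue was fitted with edgeR 4.0.16 (R 4.3.3, TMM scaling, filterByExpr, quasi-likelihood test, Benjamini-Hochberg adjustment over 16361 genes in testes and 16076 in forebrain), with all 3 genotypes sharing 1 estimate of the spread. Both tissues were fitted jointly (17800 genes) for the comparison of tissues and for the interaction, which contrasts the mean of both mutants minus WT in forebrain with the same in testes. The fits were tested on simulated data. The study counts its samples as mice, but the labels name no animal for a library, and the study counts fewer WT forebrains than the 3 WT forebrain libraries labelled and used here. Library totals were 7302401 to 8289015 counts in testes and 6518151 to 14621584 in forebrain, and the biological coefficient of variation was 0.153 and 0.115.

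All 10 genes were named. Of each of the 9 pathway and macrophage lists, up to 4 genes passing in either mutant were named, in order of their mean change, and the 5 genes most like the mean of the 10 in each tissue, among those at 5 CPM or more. The genes, lists and motifs were chosen with earlier results of these data known. Promoters of 250 bases were read from GRCm39. Alternatives were upper quartile scaling, library size alone, DESeq2 1.42.0, dropping the count filter, a floor of 10 counts for each library, the replicate number as a block, only the 2 genotypes compared, and each library left out.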

Additional observations from a re-analysis of the deposited data

Results flagged for a closer look

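For 4 of the genes followed beside the 10 macrophage genes, the difference between mutants and WT differed between forebrain and testes by the interaction test in edgeR. For *Spp1* the interaction was 2.33 on the log2 scale (SE 0.186, adjusted p = 5.46e-08), and for *Igf1* it was 1.396 (SE 0.219, adjusted p = 0.00212). Both were called in 23 of 23 alternative analyses. For *Cebpa* it was 1.47 (SE 0.312, adjusted p = 0.0129), which was lost without testes WT 1 (adjusted p = 0.0510) or testes WT 2 (0.0710). For *Lpl* it was 1.04 (SE 0.236, adjusted p = 0.0250), which was lost without testes WT 1 (0.0509), testes WT 2 (0.186) or any of the 3 forebrain WT libraries (0.0524 to 0.0602).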

How the results depend on the processing

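The rise of *Cx3cr1* in forebrain kept its direction and its call under all 16 alternatives in each mutant genotype. The number of the 10 genes called in *Ocn*+/- testes was 2, became 1 when at least 10 counts were asked of every library, and ranged from 0 to 2 over the libraries left out. In *Ocn*-/- testes it was 0, became 1 with DESeq2, 2 with no filter on low counts and 1 with the replicate block, and ranged from 0 to 1. The counts in the other comparisons stayed within 1.5 times. With only 2 WT testes libraries and few counts of *Aif1*, *Trem2* and *P2ry12*, small changes there were not detectable.

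The sign of some differences that did not pass turned when 1 library was left out, and their log2 range over the libraries left out is given. Against WT, in *Ocn*+/- testes these were *Tmem119* (-0.11 to 0.21), *Aif1* (-0.65 to 0.98), *C1qa* (-0.32 to 0.40), *C1qb* (-0.13 to 0.0759), *Apoe* (-0.24 to 0.16) and *Stab1* (-0.0895 to 0.17). Those in *Ocn*-/- testes were *P2ry12* (-0.23 to 0.59), *Csf1r* (-0.35 to 0.11), *Aif1* (-1.20 to 0.43) and *Tyrobp* (-0.0783 to 0.74). In *Ocn*-/- against *Ocn*+/- testes these were *P2ry12* (-0.79 to 0.0189) and *Tyrobp* (-0.35 to 0.0624). Against WT, in *Ocn*+/- forebrain these were *Csf1r* (-0.0545 to 0.15) and *C1qb* (-0.0451 to 0.26). Those in *Ocn*-/- forebrain were *Tmem119* (-0.25 to 0.077), *Csf1r* (-0.15 to 0.12), *C1qb* (-0.21 to 0.19) and *Trem2* (-0.0499 to 0.71). In *Ocn*-/- against *Ocn*+/- forebrain these were *Cx3cr1* (-0.00284 to 0.13), *P2ry12* (-0.20 to 0.16), *Tmem119* (-0.0954 to 0.25), *Csf1r* (-0.19 to 0.0796), *C1qa* (-0.43 to 0.0368), *C1qb* (-0.35 to 0.11), *C1qc* (-0.21 to 0.098) and *Tyrobp* (-0.26 to 0.17). Between forebrain and testes these were *C1qb* (-0.031 to 0.18), *C1qc* (-0.0114 to 0.16) and *Tyrobp* (-0.27 to 0.00566). For the interaction these were *P2ry12* (-0.28 to 0.12), *Tmem119* (-0.11 to 0.20), *Csf1r* (-0.34 to 0.11), *C1qa* (-0.43 to 0.31) and *Tyrobp* (-0.37 to 0.50).

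Signs also turned with library size alone in *Ocn*+/- testes, for *Aif1* (0.0134), *C1qa* (0.0533), *C1qb* (0.0355) and *Apoe* (0.0152), in *Ocn*-/- forebrain for *Csf1r* (0.0772) against WT and for *C1qc* (0.00307) against *Ocn*+/-. Between the tissues *C1qb* turned with upper quartile scaling (-0.0917) and library size alone (-0.26), and *C1qc* likewise (-0.0956 and -0.27). These scalings move all genes of a library alike: with library size alone the median of all genes lay at 0.08 in *Ocn*+/- testes, 0.11 in *Ocn*-/- forebrain and 0.02 between the mutant forebrains, against 0.01, 0.01 and 0.00307, and between the tissues as given above.

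With the replicate number as a block the signs of *Aif1* (0.12), *C1qa* (0.13) and *C1qb* (0.16) turned in *Ocn*+/- testes. There the block also ended the calls of *Serping1* (adjusted p = 0.0656), *C3* (0.0925), *Entpd1* (0.0699), *Cd68* (0.0549), *Gpnmb* (0.0765) and *Igf1* (0.0697). It gave calls to *Cx3cr1* (0.0478) and *Lpl* (0.0169) in *Ocn*-/- testes, and to *Coro1a* (0.0480) and *F13a1* (0.0170) in *Ocn*+/- forebrain. The numbers do not pair the libraries: same-numbered libraries correlated between -0.0937 and 0.0871 in testes (7 pairs) and between -0.0366 and 0.146 in forebrain (9 pairs).

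The number of all genes called moved more. In *Ocn*+/- testes it was 1350, 2149 with no filter, 2084 with only 2 genotypes and 118 to 2019 with 1 library left out. In *Ocn*-/- testes it was 922, 1763 with no filter and 85 to 1559. In *Ocn*+/- forebrain it was 625, 369 with library size alone, 1265 with no filter and 183 to 830, and in *Ocn*-/- forebrain 780, 1502 with no filter and 189 to 919. The interaction count was 526, 947 with DESeq2, 1023 with no filter and 93 to 1070. Between the mutant genotypes it was 0 in testes, 72 with DESeq2, 252 with no filter, 3 with at least 10 counts in every library, 1 with the block and 0 to 47 with 1 library left out. In forebrain it was 1, 2 with library size alone, 5 with DESeq2, 34 with no filter, 0 with at least 10 counts in every library, 0 with only 2 genotypes and 1 to 2 with 1 library left out.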
